A study of Homo sapiens with 8 samples.

Results

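The replication-dependent histone genes were followed in poly(A)-selected RNA from 2 human liver cancer cell lines. They were taken as the rows of the count table whose symbol begins with HIST1H, HIST2H, HIST3H or HIST4H, whose biotype is protein coding, and which held at least 10 reads in any of the 8 libraries. Of 31710 genes in the table, 60 were protein-coding histone rows of this kind and 36 met the read minimum: 3 of 6 for the linker histone H1, 8 of 15 for H2A, 13 of 17 for H2B, 7 of 11 for H3 and 5 of 11 for H4. The other 24 stayed below it. HIST1H2BL and HIST1H4C reached exactly 10 reads in their highest library and were kept, while HIST2H4A and HIST1H2AK reached 9 and were not. A general filter on low counts then left 33 of the 36 for testing, without HIST1H2BL (H2B), HIST1H3A (H3) and HIST1H4C (H4).

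The lines were Huh7 and Hep3B, both established from liver tumours. Each was sequenced as an untreated control, after sertraline, after XL413, and after XL413 followed by sertraline, with 1 library for each line and treatment. XL413 inhibits the CDC7 kinase, which starts DNA replication, and was given for 10 days as a pretreatment meant to bring the cells into senescence. Sertraline, an antidepressant, then followed for 24 hours in the libraries with both drugs. For sertraline alone the duration is not stated. No concentrations and no separate cultures are given, so the 2 lines serve as the replicates of a treatment, and p-values measure only the spread between these libraries.

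Replication-dependent histones package newly made DNA, and their genes are read mainly while the cell copies its genome. Their messenger RNAs are unlike nearly all others: they end in a short conserved stem-loop in place of a poly(A) tail. The protein SLBP binds that stem-loop and is needed for 3′ end cutting, translation and timely decay, and NPAT switches the gene clusters on under cyclin E and CDK2. When processing at the stem-loop is skipped, or in differentiated and non-dividing cells, some of these genes give longer transcripts that use a downstream polyadenylation signal. Selection for poly(A) keeps those longer forms and loses the stem-loop forms, so every level given here is that of transcripts that passed poly(A) selection, not of all histone messenger RNA. The genes are also close copies of one another, so reads that fall in identical stretches may be lost or assigned to a neighbour. Of the 36 deposited gene spans, 5 overlap another row, among them HIST2H2BE, HIST1H2BD, and HIST1H2BN with HIST1H2AL, and reads in such stretches are uncertain in the same way.

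The stem-loop was searched for in the GENCODE v29 transcripts (GRCh38) on the sense strand as GGCNCTTNTNAGNGCC. It was present in 22 of the 36 histone genes and in 0.0334% of all 206694 transcripts. In 18 of these 22 genes an annotated transcript ran on for more than 100 bases past it. The following sites are shown because they belong to genes whose levels carry the results, with the 16 bases of the stem-loop in capitals and 5 bases on either side.
HIST1H2AC: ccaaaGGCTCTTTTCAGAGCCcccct
HIST3H2A: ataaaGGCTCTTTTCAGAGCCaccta
HIST1H2BD: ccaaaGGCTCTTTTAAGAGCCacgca
HIST2H2BE: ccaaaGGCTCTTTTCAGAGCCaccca
HIST1H3H: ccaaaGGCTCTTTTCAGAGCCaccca
HIST1H4H: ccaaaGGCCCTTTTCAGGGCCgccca
HIST4H4: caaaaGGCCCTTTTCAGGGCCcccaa

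These sites lie at chr6:26124669-26124684 on the plus strand for HIST1H2AC, chr1:228457369-228457384 on the minus strand for HIST3H2A, chr6:26158587-26158602 on the plus strand for HIST1H2BD, chr1:149886188-149886203 on the minus strand for HIST2H2BE, chr6:27810516-27810531 on the plus strand for HIST1H3H, chr6:26285131-26285146 on the minus strand for HIST1H4H and chr12:14770724-14770739 on the minus strand for HIST4H4. All sites shown share the outer bases GGC and GCC of the stem, which the searched pattern requires of every match. In the next pair inward the H2A, H2B and H3 sites hold T and A, and the H4 sites C and G. The longest annotated transcript continued past the site for 1128 bases in HIST1H2AC, 390 in HIST3H2A, 1729 in HIST2H2BE, 769 in HIST1H3H, 1655 in HIST1H4H and 1510 in HIST4H4. In HIST1H2BD the transcript that holds the stem-loop ended 39 bases after it, and a second annotated transcript lacks it. No stem-loop was found in the models of the other 14 genes, among them HIST1H1C and HIST1H2BK, whose annotated transcripts hold the coding sequence alone. In 17 of the 36 genes the span used in the deposited table was likewise the coding sequence only, and 19 had a longer span. The first kind held 45.0% of all histone reads and the second 55.0%. Counts of the first kind leave out any read from a longer 3′ end, and some of the second kind can too. The deposited span was the same as the GENCODE v29 span in 27 of the 36 genes. That of HIST1H4H was 397 bases, against 8030 in GENCODE v29, so the annotated lengths past the site need not be what was counted.

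Promoters were read from the RefSeq promoter table (GRCh38.p14), which held 32 of the 36 genes. The 250 bases before the start were searched on both strands for the box CCAAT, for the core element TATAAA, for the octamer ATTTGCAT that OCT1 binds, for the H1 element AAACACA and for CACGTG. A histone gene counted as a match if any of its listed promoters matched, while the share over all promoters counts each promoter once, so the units differ. The CCAAT box was found in 29 of 32 genes, against 32.0% of all 35116 promoters, and TATAAA in 18, against 10.7%. ATTTGCAT was found in 13 genes, against 1.63%, of which 6 were H2A, 6 H2B and 1 H3. The H3 gene, HIST1H3D, has 2 listed promoters, and the 1 with the match is the same stretch as that of HIST1H2AD. Neighbouring genes such as HIST2H2AC and HIST2H2BE share most of the stretch searched, so 1 match can count for both. AAACACA occurred in all 3 H1 genes and in no gene of another class, against 4.82% of all promoters, and CACGTG in none, against 6.34%. A match is a run of letters and was not tested as a binding site. The promoters of HIST1H1C, which held nearly all H1 reads, of HIST2H2BE, whose response to XL413 differed between the lines with the smallest p, and of HIST3H2A, the histone gene that rose with sertraline, are shown with every match in capitals.
HIST1H1C, chr6:26056471-26056720, minus strand: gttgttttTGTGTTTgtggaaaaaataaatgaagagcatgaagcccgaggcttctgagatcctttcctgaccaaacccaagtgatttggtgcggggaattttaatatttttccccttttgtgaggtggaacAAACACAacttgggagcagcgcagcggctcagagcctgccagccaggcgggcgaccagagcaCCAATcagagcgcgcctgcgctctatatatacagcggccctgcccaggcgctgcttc
HIST2H2BE, chr1:149886683-149886932, minus strand: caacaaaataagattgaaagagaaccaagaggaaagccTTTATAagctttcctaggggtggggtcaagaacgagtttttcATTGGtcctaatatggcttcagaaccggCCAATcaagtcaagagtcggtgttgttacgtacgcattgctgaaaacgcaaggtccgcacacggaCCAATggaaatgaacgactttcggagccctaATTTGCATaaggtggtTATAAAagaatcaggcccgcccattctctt
HIST3H2A, chr1:228457874-228458123, minus strand: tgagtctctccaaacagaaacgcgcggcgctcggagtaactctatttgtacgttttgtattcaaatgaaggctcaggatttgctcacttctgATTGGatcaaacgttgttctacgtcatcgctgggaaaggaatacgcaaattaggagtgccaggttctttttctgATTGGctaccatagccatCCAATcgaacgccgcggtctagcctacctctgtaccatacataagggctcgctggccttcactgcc

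The HIST1H1C promoter holds AAACACA on both strands and 1 CCAAT box. The HIST2H2BE promoter holds CCAAT and TATAAA, each on both strands, and the octamer. The HIST3H2A promoter holds CCAAT on both strands and none of the other motifs searched.

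The 8 libraries held 20275392 to 30842770 reads assigned to genes. Levels are given as CPM, the read count relative to the size of the library after scaling by the trimmed mean of M-values. All 10 hepatocyte markers checked had reads in every library, with a summed level of 35833 to 51540 CPM in Huh7 and 30114 to 45778 CPM in Hep3B. The 7 markers of blood, endothelial, fibroblast and muscle cells summed to 14.2 to 43.6 CPM in Huh7, mostly from COL1A1, and 4.52 to 6.31 CPM in Hep3B, where VWF was at 0 in every library. Small nuclear, nucleolar and other short RNAs that lack a poly(A) tail (692 rows) summed to 15.9 to 16.9 CPM in Huh7 and 16.8 to 17.8 CPM in Hep3B.

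The histone genes stood lower in Hep3B than in Huh7. The 36 genes together held 12370 reads in the Huh7 control (473 CPM) and 2917 in the Hep3B control (103 CPM). HIST1H1C, which encodes the linker histone H1.2, stood at 177, 113, 265 and 129.6 CPM in Huh7 under control, sertraline, XL413 and both drugs, and at 11.8, 11.2, 13.1 and 9.69 CPM in the same order in Hep3B. The lowest Huh7 library was far above the highest Hep3B library. HIST1H2AC, an H2A gene, stood at 138, 85.8, 199 and 151 CPM in Huh7 and at 48.9, 28.9, 34.1 and 28.7 CPM in Hep3B, again without overlap. HIST1H2BK, an H2B gene, stood at 58.8, 38.5, 95.4 and 50.6 CPM in Huh7 and at 7.62, 4.94, 7.87 and 6.21 CPM in Hep3B.

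Across the 33 tested genes, 24 were lower and 1 was higher in Hep3B than in Huh7 at an adjusted p under 0.05, where 31.4% of all 16972 genes tested were lower and 31.4% higher. This and all following adjusted p-values are from edgeR's quasi-likelihood test with Benjamini-Hochberg adjustment over all genes tested. The median log2 difference of the 33 genes was -1.81, beside 0.0044 over all genes, and it was the same with HIST1H2AI set to the bound given for it. HIST1H1C differed by -3.83 ± 0.16 (log2, SE; adjusted p = 5.39e-07), HIST1H2BK by -3.13 ± 0.14 (6.44e-07), HIST3H2A by -2.65 ± 0.16 (4.1e-06) and HIST1H2AC by -2.00 ± 0.19 (3.63e-05). HIST1H2BH followed at -3.46 ± 0.33 (4.33e-05) and HIST1H2BJ at -2.27 ± 0.25 (9.9e-05). HIST1H2AI held 96 reads over the 4 Huh7 libraries and 0 over the 4 Hep3B libraries, which puts it at least 31.6-fold lower when 3 reads over the Hep3B libraries are taken as the limit.

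By class, 2 of 3 H1 genes, 6 of 8 H2A, 10 of 12 H2B, 4 of 6 H3 and 2 of 4 H4 genes were lower in Hep3B. The exception in direction was HIST1H4I, at 0.153, 0.256, 0.561 and 0.264 CPM in Huh7 and 0.532, 0.596, 0.660 and 0.734 CPM in Hep3B, a difference of 1.09 ± 0.36 (adjusted p = 0.0264) on 4 to 24 reads a library. Its XL413 library in Huh7 overlapped the Hep3B range, and the call was lost when any library other than the XL413 library of either line was left out. Among the 8 genes that did not pass, HIST1H2AG, HIST1H2BN, HIST1H1E and HIST1H3G had the values nearest to 0, with log2 differences of 0.02 ± 0.34, -0.19 ± 0.29, 0.22 ± 0.29 and 0.04 ± 0.33. Of 33 genes, 18 had every Hep3B library below every Huh7 library, against 24.2% of all genes, and in 0 were all Hep3B libraries above, against 25.1%. In RNA from whole cultures, fewer cells that make a transcript and less transcript per cell cannot be told apart.

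**Figure D1:**
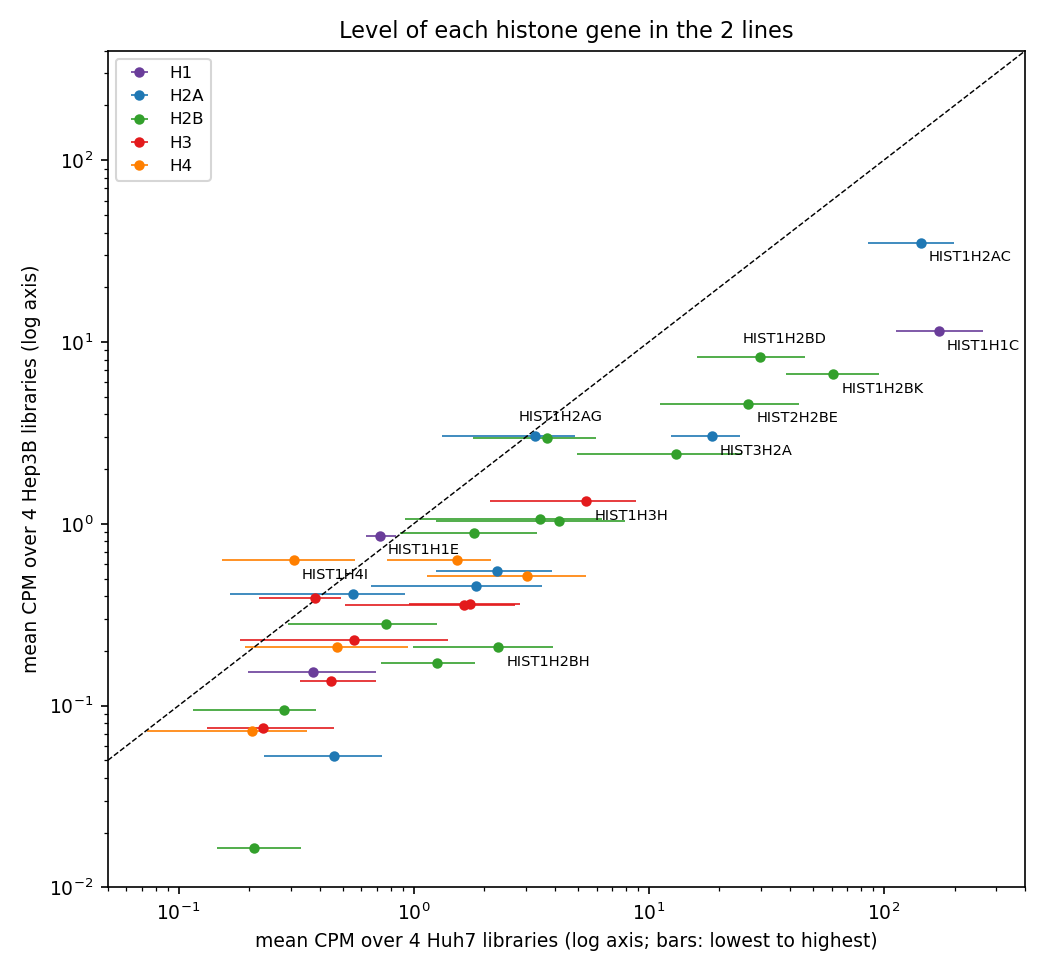
Mean level of each histone gene over the 4 Huh7 libraries (x axis, CPM, log scale, with bars from the lowest to the highest library) against the mean over the 4 Hep3B libraries (y axis, CPM, log scale), coloured by class, with equality as a dashed line. HIST1H2AI, at 0 in Hep3B, is left out; HIST1H1C and HIST1H2BK lie far below the line and HIST1H4I lies above it.

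The composition of the pool was uneven in both lines. HIST1H1C supplied 99.1 to 99.6% of H1 reads in the Huh7 libraries and 89.7 to 93.8% in Hep3B. HIST1H2AC supplied 76.1 to 88.4% of H2A reads over all 8 libraries. HIST1H2BK supplied 33.1 to 48.5% of H2B reads in Huh7 and 19.5 to 25.1% in Hep3B, so that its share was lower in each Hep3B library than in any Huh7 library. HIST1H3H, an H3 gene, supplied 40.0 to 57.4% of H3 reads, and HIST1H4H supplied 45.6 to 57.5% of H4 reads in Huh7 and 18.1 to 34.6% in Hep3B. The H3 and H4 classes rest on few reads, 130 to 455 and 68 to 268 in Huh7 libraries and 58 to 107 and 39 to 72 in Hep3B libraries.

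XL413 was accompanied by higher histone transcript levels in Huh7 and not in Hep3B. The summed level of the 36 genes was 473 CPM in the Huh7 control and 760.3 CPM under XL413, and 103 and 92.4 CPM in Hep3B. In Huh7 the ratio of the XL413 library to the control library was 1.49 for H1, 1.46 for H2A, 1.96 for H2B, 1.45 for H3 and 2.14 for H4. In Hep3B the same ratios were 1.16, 0.735, 1.07, 0.856 and 0.996. Each ratio compares 1 library with 1 and has no test. Some ratios rested on the leading gene of the class. Without HIST1H1C the H1 ratio was 0.619 in Huh7 and 1.93 in Hep3B, on few reads, and without HIST1H2AC the H2A ratio was 1.61 in Huh7 and 1.02 in Hep3B. The H2B ratio without HIST1H2BK was 2.27 in Huh7 and 1.08 in Hep3B. The H3 ratio without HIST1H3H was 1.19 in Huh7 and 0.714 in Hep3B. For H4 without HIST1H4H it was 1.87 in Huh7 and 1.09 in Hep3B.

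**Figure D2:**
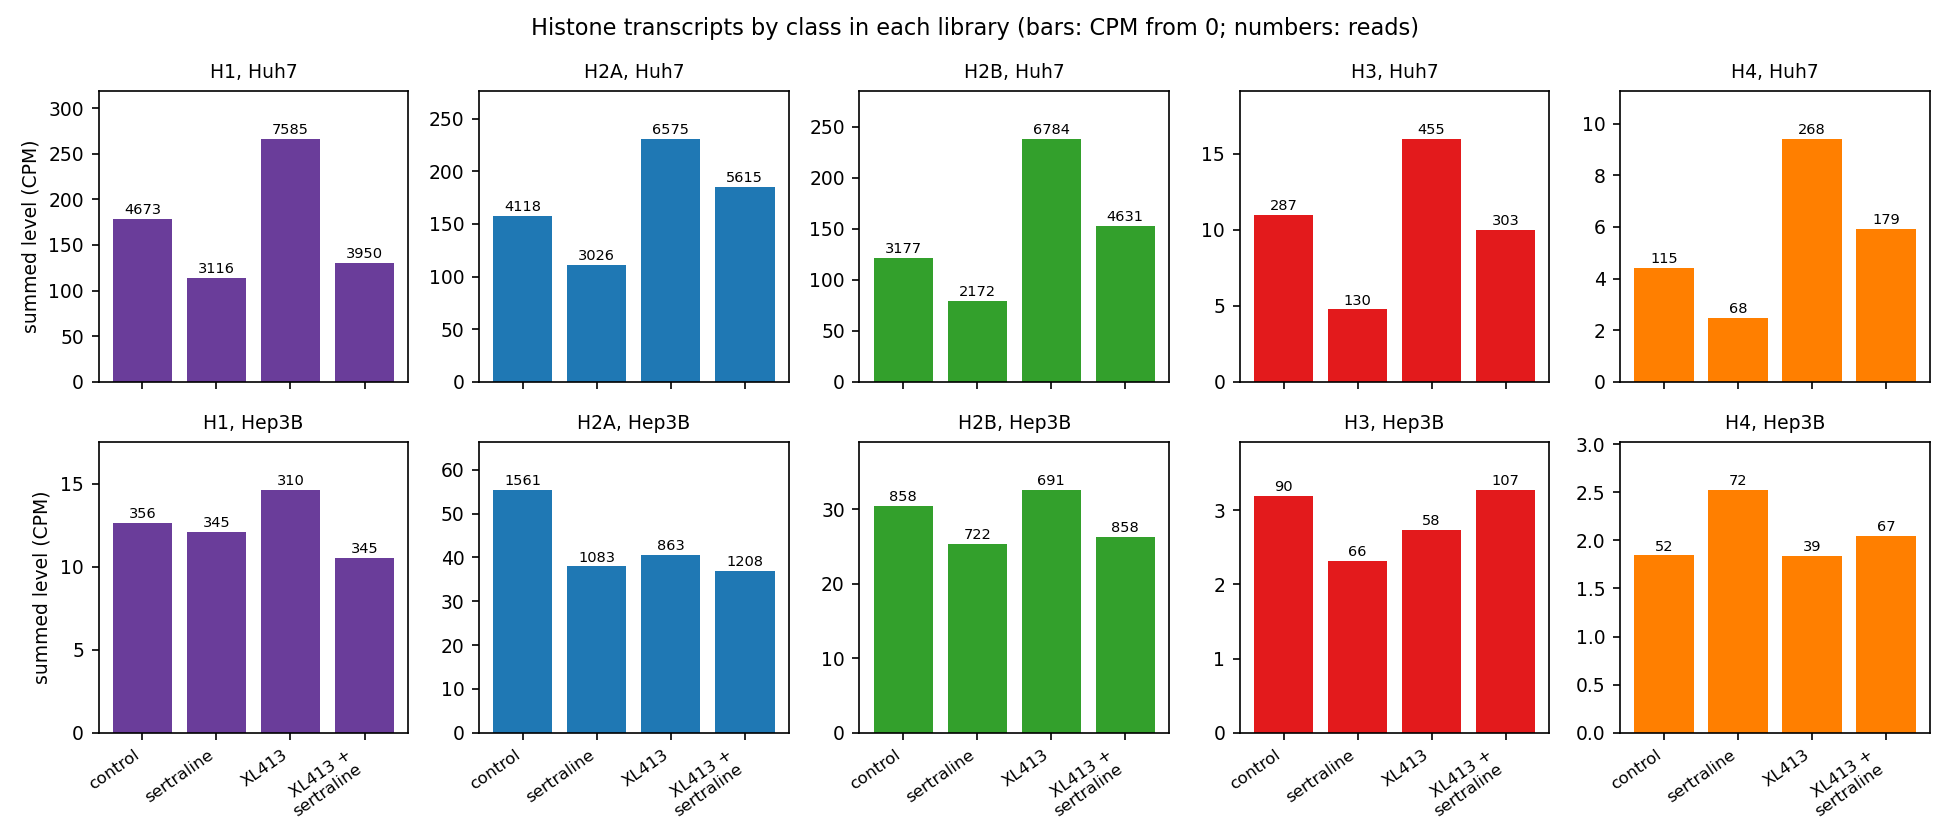
Summed level of each histone class (CPM, linear axis from 0, scaled separately in each panel) in the 4 Huh7 libraries (top) and the 4 Hep3B libraries (bottom), 1 bar per library, with the number of reads above each bar. In Huh7 the XL413 bar is the tallest in all 5 classes and the sertraline bar the shortest; the Hep3B bars have no such common order.

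Tested over both lines together, with the line as a term, 0 of 33 genes passed for XL413 against control, as did 0% of all genes, and DESeq2 and limma also called 0. At an unadjusted p under 0.05 there were 10 of 33, against 10.8%. The log2 change was above 0 in 27 of 33, against 51.2% of all genes. The smallest p-values among higher values belonged to HIST2H2BF (log2 1.32 ± 0.47, adjusted p = 0.39) and HIST1H2AE (0.95 ± 0.36, 0.421), and among lower values to HIST1H2BH (-1.02 ± 0.42, 0.445) and HIST2H2AC (-1.19 ± 0.50, 0.453). The difference between the lines was then tested directly, in a model of line by XL413 plus line by sertraline, whose error is the departure of the drugs from additive effects inside a line. There 11 of 33 genes had a lower XL413 effect in Hep3B than in Huh7, where 4.96% of all genes were lower, and 0 a higher one, where 3.94% were higher.

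HIST2H2BE, an H2B gene known for polyadenylated transcripts, had the smallest p. It stood at 15.8, 11.2, 43.7 and 35.5 CPM in Huh7 under control, sertraline, XL413 and both drugs, and at 3.83, 5.01, 4.52 and 4.95 CPM in Hep3B. Both Huh7 libraries with XL413 were above both without it, and the Hep3B values lay close together. The line difference of the XL413 effect was -1.47 ± 0.20 (log2, Hep3B minus Huh7, adjusted p = 8.43e-05). HIST1H2BD, another H2B gene, stood at 20.8, 16.1, 46.1 and 35.7 CPM in Huh7 and at 9.18, 7.01, 9.89 and 6.94 CPM in Hep3B, a line difference of -1.10 ± 0.17 (0.000347). HIST1H2AC, whose levels are given above, differed by -0.94 ± 0.16 (0.000884): in Huh7 the XL413 libraries were higher, in Hep3B its control library was the highest.

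The remaining 8 calls were HIST1H2BC (-1.97 ± 0.39, adjusted p = 0.00278), HIST1H2AG (-1.56 ± 0.32, 0.00313), HIST1H2BG (-1.95 ± 0.40, 0.00398), HIST1H2BJ (-1.12 ± 0.24, 0.00501), HIST1H2BN (-1.19 ± 0.32, 0.0215), HIST1H4H (-1.52 ± 0.46, 0.0401), HIST1H3B (-2.74 ± 0.83, 0.0424) and HIST4H4 (-1.56 ± 0.48, 0.0464). By class the 11 were 6 of 12 H2B genes, 2 of 8 H2A, 1 of 6 H3, 2 of 4 H4 and 0 of 3 H1. Of the 11, 5 passed in each of the 8 fits that left out 1 library: HIST2H2BE, HIST1H2BD, HIST1H2AC, HIST1H2BC and HIST1H2BJ. The count was 6 without the Huh7 sertraline library and 6 without the Huh7 library with both drugs, and HIST1H4H passed in 0 of the 8 fits. DESeq2 called 5 of 33 and limma 9. HIST1H1C and HIST1H2BK did not pass, at -0.42 ± 0.17 (0.131) and -0.37 ± 0.18 (0.234). The smallest p-values among higher values were those of HIST1H1B (1.27 ± 0.90, 0.453) and HIST1H1E (0.66 ± 0.52, 0.509).

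Inside Huh7, in a comparison of 2 libraries with XL413 against 2 without that was added after the values were seen, 20 of 33 genes rose and 2 fell, where 11.6% of all genes rose and 8.99% fell. The 6 with the smallest p among those that rose were HIST2H2BE (log2 1.56 ± 0.12), HIST1H2BD (1.15 ± 0.11), HIST1H2BJ (1.09 ± 0.14), HIST1H2BC (1.63 ± 0.23), HIST1H2BG (1.51 ± 0.23) and HIST1H2BN (1.45 ± 0.22), all H2B genes, with adjusted p from 2.88e-08 to 9.19e-05. In all, 10 of 12 H2B genes, 4 of 8 H2A, 3 of 6 H3, 2 of 4 H4 and 1 of 3 H1 genes rose there. The gene of the H1 class was HIST1H1C, by 0.39 ± 0.11 (0.0114). Both XL413 libraries lay above both others in 21 of 33 genes, against 21.1% of all genes.

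HIST1H2BH and HIST2H2AC went the other way in Huh7. HIST1H2BH, an H2B gene, stood at 3.90, 2.34, 1.93 and 0.991 CPM in Huh7 and at 0.319, 0.350, 0.141 and 0.0306 CPM in Hep3B. It fell by 1.11 ± 0.25 on the log2 scale in Huh7 (adjusted p = 0.00355) and was also the 1 gene of 33 that passed inside Hep3B, where 17.1% of all genes passed and 8.21% fell, with a change of -2.08 ± 0.70 (0.0473) on 1 to 10 reads a library. HIST2H2AC, an H2A gene, stood at 0.918, 0.695, 0.421 and 0.165 CPM in Huh7 and at 0.709, 0.350, 0.283 and 0.306 CPM in Hep3B. Its change was -1.47 ± 0.45 in Huh7 (0.0244) and -0.76 ± 0.49 in Hep3B (0.324), and in each line both XL413 libraries were below both others.

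**Figure D3:**
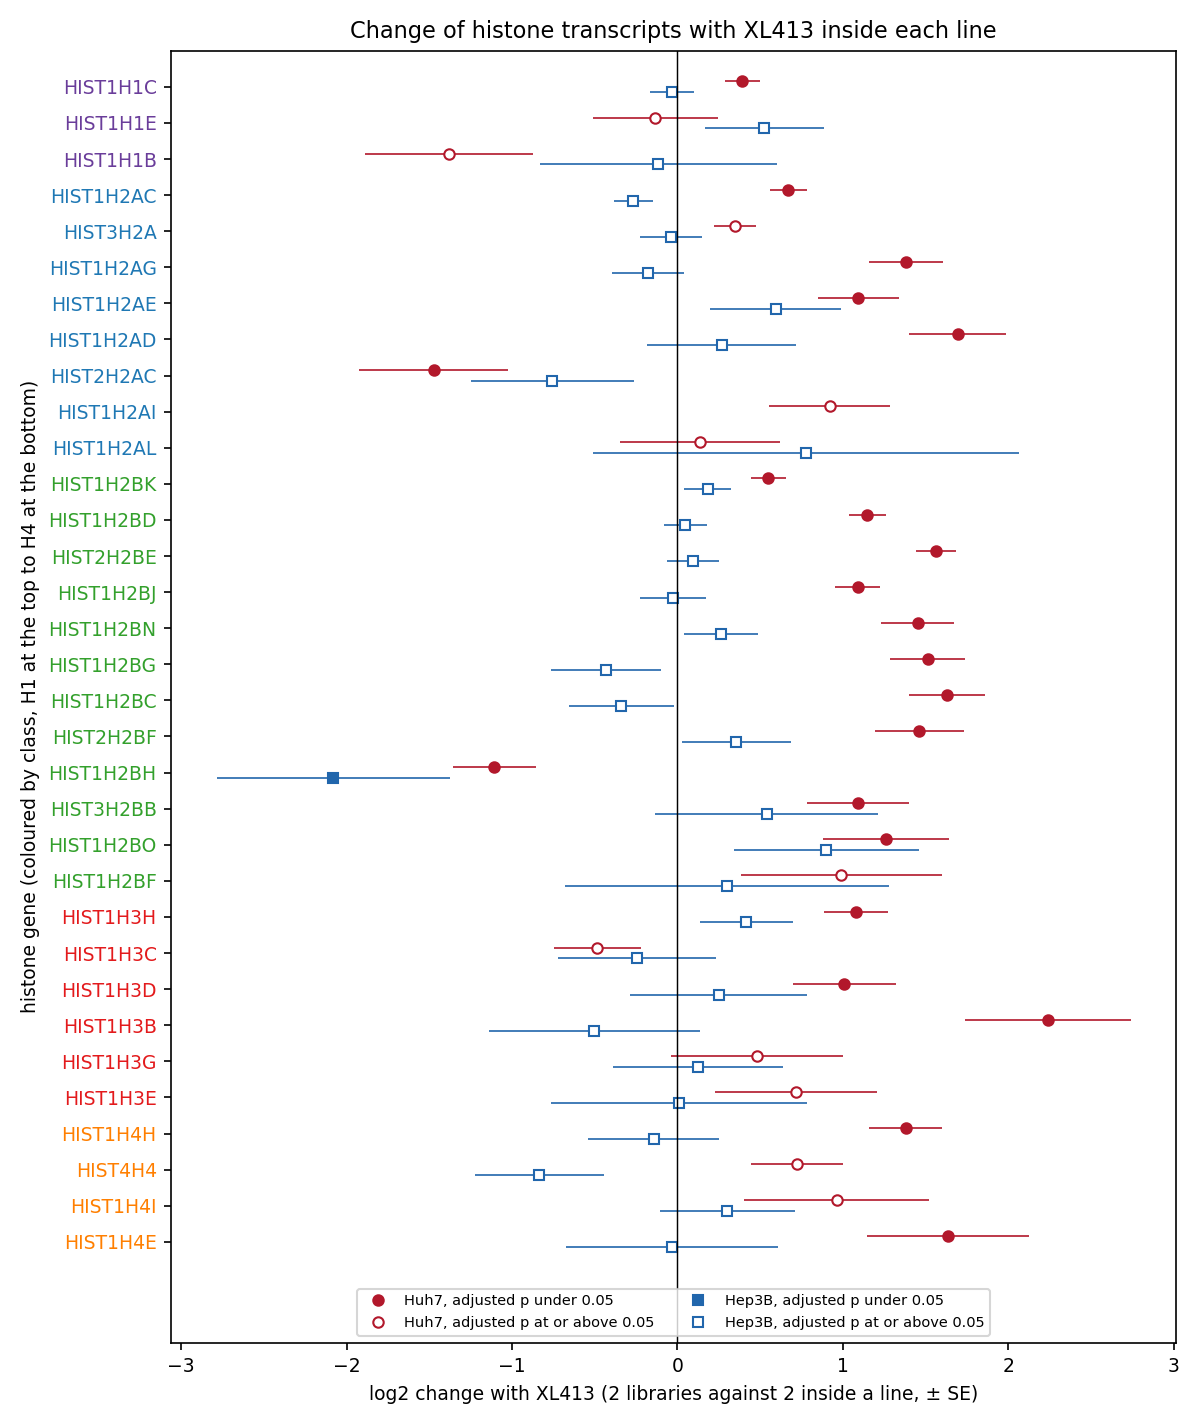
Log2 change with XL413 for each of the 33 tested histone genes inside Huh7 (circles) and inside Hep3B (squares), from 2 libraries against 2 in each line, with standard errors; filled symbols have an adjusted p under 0.05. In Huh7 20 genes are filled to the right of 0 and 2 to the left, in Hep3B 1 gene is filled, to the left; the Hep3B point of HIST1H2AI (0 reads) is left out.

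The regulators SLBP and NPAT did not pass for XL413 in either line. SLBP stood at 147, 131, 151 and 125 CPM in Huh7 and at 122, 82.9, 134 and 113 CPM in Hep3B, with an XL413 change of -0.02 ± 0.10 inside Huh7 (adjusted p = 0.923). NPAT stood at 14.7, 15.2, 13.2 and 14.3 CPM in Huh7 and at 16.8, 12.6, 20.4 and 16.5 CPM in Hep3B, with an XL413 change of -0.12 ± 0.12 (0.529) inside Huh7. Inside Hep3B their XL413 changes were 0.29 ± 0.10 (0.0546) and 0.34 ± 0.12 (0.0573). Of 24 genes of histone mRNA transcription, processing and decay, 1 rose in Huh7 (HINFP, an activator of H4 genes) and 1 fell (E2F1). Over all genes 11.6% rose and 8.99% fell there. In Hep3B 2 of 24 rose (CCNE2 and CDK2), against 8.84% of all genes, so that share was close to the background. In the line difference of the XL413 effect 1 of 24 was higher, CDK2, where 3.94% of all genes were higher.

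Among 16 S phase genes, 0 rose and 8 fell inside Huh7 with XL413, among them PCNA, the MCM helicase genes MCM2, MCM6 and MCM7, RRM2 and TYMS, with a median of -0.32 over the list. Their summed level was 3794 CPM in the Huh7 control and 3167 CPM under XL413, and 3429 and 3456 CPM in Hep3B. Of 13 histone chaperones, which carry histones to DNA, 0 rose and 7 fell, among them ASF1A, ASF1B, CHAF1A, CHAF1B, NASP and SSRP1. Of 11 tested replacement histones, variants that can be made outside S phase, 0 rose and 5 fell: H2AFX, H2AFZ, H2AFV, H2AFY2 and H1FX. Inside Hep3B 0 genes of these 3 lists fell with XL413. There 1 S phase gene (TK1), 3 chaperones (ASF1A, RBBP4 and RBBP7) and 1 replacement histone (H2AFY) rose. Over all genes 11.6% rose and 8.99% fell with XL413 in Huh7, and 8.84% rose and 8.21% fell in Hep3B. The line difference of the XL413 effect was higher in Hep3B for 7 of 16 S phase genes, 5 of 13 chaperones and 4 of 11 replacement histones. It was lower for 1, H1F0. Over all genes 3.94% were higher and 4.96% lower. The part of the genes of these 3 lists in the histone result was not tested.

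With sertraline HIST3H2A was higher in both lines, and most of the 33 tested histone genes had a log2 change below 0 over both lines. The comparisons of sertraline and of XL413 with control share the control libraries. In Huh7 the ratio of the sertraline library to the control library was 0.638 for H1, 0.703 for H2A, 0.654 for H2B, 0.433 for H3 and 0.566 for H4, and in Hep3B 0.957, 0.685, 0.831, 0.725 and 1.37. The H2A ratios rested on HIST1H2AC: without it they were above 1, at 1.26 in Huh7 and 1.41 in Hep3B. Without HIST1H1C the H1 ratio was 0.694 in Huh7 and 1.17 in Hep3B. HIST3H2A, an H2A gene on chromosome 1, stood at 12.5, 20.3, 16.9 and 24.5 CPM in Huh7 under control, sertraline, XL413 and both drugs, and at 1.74, 4.45, 2.12 and 3.85 CPM in Hep3B. In both lines each sertraline library was above its partner without it. Over both lines HIST3H2A rose by 0.997 ± 0.23 (log2, adjusted p = 0.0457), the 1 call among 33 genes (3.03%). Over all genes 4.9% passed, 2.96% rose and 1.94% fell, so a share of 1 in 33 was close to the background. The call held without the Huh7 sertraline library and was lost when any other library was left out; over the 8 fits the adjusted p ran from 0.0365 to 0.211 and the log2 value from 0.71 to 1.34. Without the line as a replicate block 0 genes passed.

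The lower values with the smallest p over both lines did not pass: HIST1H2BK at -0.62 ± 0.18 (adjusted p = 0.0954) and HIST1H2AC at -0.73 ± 0.26 (0.145). Among higher values HIST1H4I came next after HIST3H2A, at 0.33 ± 0.52 (0.758). At an unadjusted p under 0.05 there were 7 of 33, against 22.2% of all genes, which is close to the background. The median over the 33 genes was -0.41, beside 0.01 over all genes, and 8 of 33 were above 0, against 51.5% of all genes. Of the 33, 9 were lower in all 4 pairs of libraries that differ by sertraline, among them HIST1H1C, HIST1H2AC and HIST1H2BK, against 22.8% of all genes, so that share was close to the background. HIST3H2A was the 1 gene that was higher in all 4 pairs, against 22.6%.

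Inside Huh7 15 of 33 genes fell with sertraline, where 13.6% of all genes fell, and 1 rose, where 14.3% rose. Among those that fell the smallest p-values were those of HIST1H2BJ (-1.23 ± 0.14, adjusted p = 8.13e-07), HIST1H1C (-0.84 ± 0.11, 4.05e-06), HIST1H2BK (-0.77 ± 0.11, 1.62e-05), HIST1H2AC (-0.54 ± 0.11, 0.000911), HIST1H2BG (-1.04 ± 0.22, 0.00143) and HIST1H3H (-0.87 ± 0.19, 0.00186). Of the 15 that fell, 7 were H2B genes out of 12, 4 were H3 out of 6, 2 H2A out of 8, 1 H1 out of 3 and 1 H4 out of 4. Inside Hep3B 4 of 33 fell, where 12.3% of all genes fell, so that share was close to the background. The 4 were HIST1H2AC (-0.51 ± 0.12, 0.0035), HIST1H2BJ (-0.75 ± 0.20, 0.00814), HIST1H2BD (-0.45 ± 0.13, 0.0155) and HIST1H2BK (-0.48 ± 0.14, 0.018). HIST3H2A rose inside each line, by 0.62 ± 0.13 in Huh7 (0.00102) and 1.12 ± 0.19 in Hep3B (0.00026). HIST4H4 rose in Hep3B by 1.13 ± 0.40 (0.0451). HIST3H2A and HIST4H4 were the 2 of 33 that rose there (6.06%), against 11.8% of all genes.

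**Figure D4:**
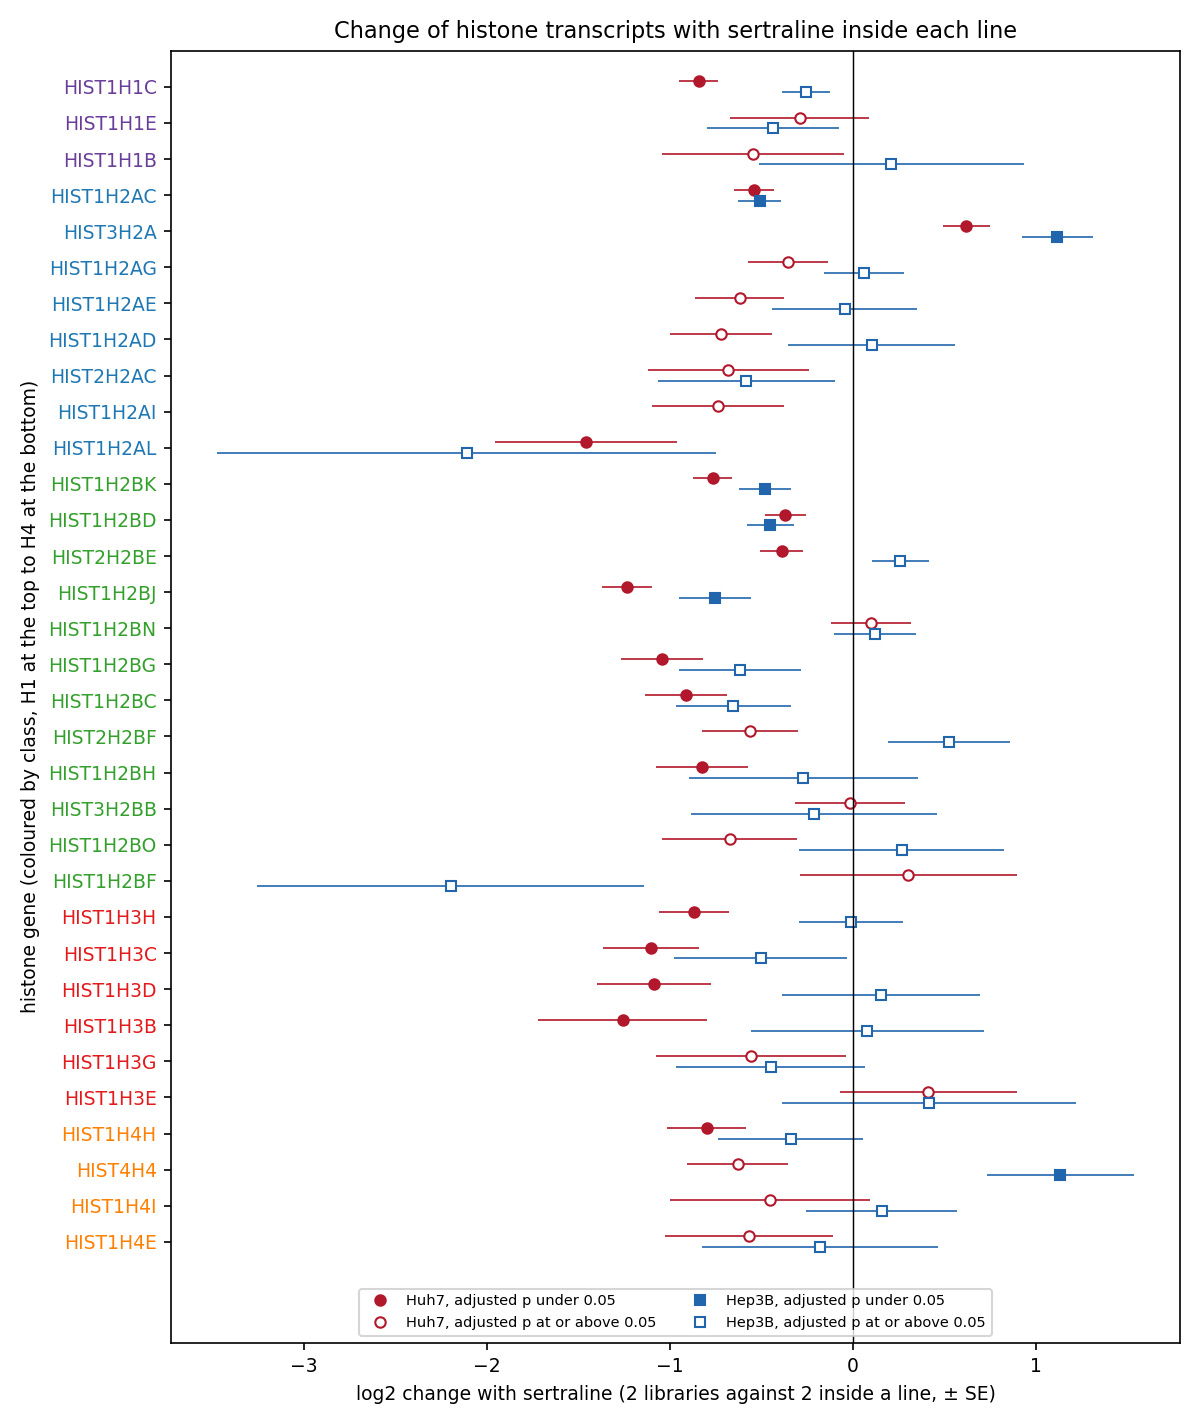
Log2 change with sertraline for each of the 33 tested histone genes inside Huh7 (circles) and inside Hep3B (squares), from 2 libraries against 2 in each line, with standard errors; filled symbols have an adjusted p under 0.05. Most Huh7 points lie left of 0, with 15 filled, while HIST3H2A is filled to the right of 0 in both lines; the Hep3B point of HIST1H2AI (0 reads) is left out.

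In the direct test of the line difference of the sertraline effect, 1 of 33 genes passed (3.03%). Over all genes 4.34% passed and 2.57% were higher in Hep3B, so that share was close to the background. The gene that passed was HIST4H4, an H4 gene on chromosome 12 outside the main clusters. It stood at 1.57, 0.769, 2.14 and 1.65 CPM in Huh7 and at 0.461, 1.16, 0.330 and 0.581 CPM in Hep3B. With sertraline it was lower in both Huh7 pairs and higher in both Hep3B pairs, a line difference of 1.76 ± 0.49 (adjusted p = 0.0438) on 7 to 61 reads a library. The call held without the XL413 library of Hep3B or without its library with both drugs and was lost in the other 6 fits, with adjusted p up to 0.341. HIST1H1C came next, at 0.59 ± 0.17 (0.0526), and among lower values HIST1H2BF (-2.50 ± 1.21, 0.287) and HIST1H2AL (-0.65 ± 1.24, 0.846).

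Of the surrounding genes, SLBP did not pass for sertraline over both lines (-0.35 ± 0.15, adjusted p = 0.206) and NPAT did not either (-0.17 ± 0.21, 0.698). Inside Hep3B SLBP fell by 0.41 ± 0.10 (0.00542) and NPAT by 0.36 ± 0.12 (0.0331). Inside Huh7 their values were -0.22 ± 0.10 (0.111) and 0.08 ± 0.12 (0.681). Over both lines, where 1.94% of all genes fell, 2 of 24 processing and decay genes fell. They were SRRT, a partner of the cap-binding complex, and the cyclin gene CCNE2. Of 16 S phase genes 1 fell, the ribonucleotide reductase gene RRM2. Inside single lines 14 of 16 S phase genes fell in Huh7 and 13 of 16 in Hep3B, with medians of -0.54 and -0.51. Chaperones fell in 9 of 13 and 8 of 13 cases. Of 24 processing and decay genes 7 fell and 3 rose in Huh7, and 7 fell and 2 rose in Hep3B. CSTF2, SRRT, CCNE1, CCNE2 and CDK2 fell in both lines. Over all genes 13.6% fell in Huh7 and 12.3% in Hep3B, and 14.3% and 11.8% rose. H1F0, a replacement linker histone of slowly dividing cells, rose in each line, at 106, 155, 134 and 181 CPM in Huh7 and 249, 566, 251 and 331 CPM in Hep3B. The other replacement histones that passed inside a line fell. They were H2AFX, H2AFZ, H2AFV, H2AFJ and H3F3B in Huh7 (5 of 11 tested) and H2AFX, H2AFZ, H2AFV and CENPA in Hep3B (4 of 11). The medians of the list were -0.31 and -0.23. The part of these genes in the histone changes was not tested.

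Sertraline after XL413 was compared with XL413 alone, and 0 of 33 genes passed, where 0.937% of all genes did. At an unadjusted p under 0.05 there were 7 of 33, against 16%, and DESeq2 called 2 lower and limma 0. In Huh7 the summed histone level was 760.3 CPM under XL413 and 485 CPM with both drugs, close to the control at 473 CPM, and in Hep3B it was 92.4 and 79.0 CPM. The smallest p-values were those of HIST1H1C (-0.78 ± 0.21, adjusted p = 0.124) and HIST1H2BK (-0.68 ± 0.18, 0.126) among lower values and HIST3H2A (0.65 ± 0.22, 0.205) and HIST1H3E (0.95 ± 0.55, 0.439) among higher ones. Both drugs against sertraline alone gave 0 of 33, as 0% of all genes passed, and 5 of 33 at an unadjusted p under 0.05, against 12.8%, and DESeq2 and limma called 0. The smallest p-values there were those of HIST1H3H (1.10 ± 0.37, 0.282) and HIST1H3D (1.45 ± 0.55, 0.328) among higher values and HIST1H2BH (-1.63 ± 0.46, 0.24) and HIST2H2AC (-1.08 ± 0.54, 0.447) among lower ones.

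The interaction of the drugs, that is the sertraline effect after XL413 minus the effect without it, gave 0 of 33 calls and 0% of all genes, and 0 of 33 at an unadjusted p under 0.05, against 0.825%, and DESeq2 and limma called 0. The smallest p-values were those of HIST1H3G (1.22 ± 0.68, adjusted p = 1), HIST1H3D (1.16 ± 0.74, 1) among higher values and HIST1H3B (-1.71 ± 1.12, 1) and HIST1H1C (-0.41 ± 0.29, 1) among lower ones. Standard errors of 0.29 to 1.12 on these values mean that an interaction about as large as the single-drug changes was not detectable for most of them. In Huh7 the order of the libraries was shared by many genes: XL413 alone was the highest of the 4 libraries in 25 of 33 genes, against 22.8% of all genes, and sertraline alone the lowest in 22 of 33, against 23%.

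H2A and H2B genes often stand head to head, with a short stretch between their starts that serves both. There were 7 such pairs among the 36 genes, 218 to 322 bases apart, and 6 had both members tested. Inside Huh7 with XL413 both members rose in HIST1H2AG and HIST1H2BJ (1.38 ± 0.22 and 1.09 ± 0.14), HIST1H2AE and HIST1H2BG (1.09 ± 0.24 and 1.51 ± 0.23) and HIST1H2AC and HIST1H2BC (0.67 ± 0.11 and 1.63 ± 0.23). In HIST1H2AD and HIST1H2BF the H2A gene rose (1.69 ± 0.29) and the H2B gene did not pass (0.99 ± 0.61). In the pair HIST2H2AC and HIST2H2BE, 322 bases apart, the H2A gene fell by 1.47 ± 0.45 (adjusted p = 0.0244). The H2B gene rose by 1.56 ± 0.12 (2.88e-08). HIST2H2AC held only 24, 19, 12 and 5 reads in Huh7 under control, sertraline, XL413 and both drugs, so its fall rests on few reads. The deposited span of HIST2H2AC covers its coding sequence alone and that of HIST2H2BE covers 44449 bases and overlaps 6 other rows, the fullest of which held 619 reads against 3547 for HIST2H2BE. In the pair HIST3H2A and HIST3H2BB the H2B gene rose with XL413 (1.09 ± 0.31, 0.0149) and the H2A gene did not pass (0.35 ± 0.13). With sertraline HIST3H2A rose inside both lines, and HIST3H2BB was at 0.727, 0.878, 1.82 and 1.62 CPM in Huh7 and 0.177, 0.105, 0.188 and 0.214 CPM in Hep3B and passed in neither.

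**Figure D5:**
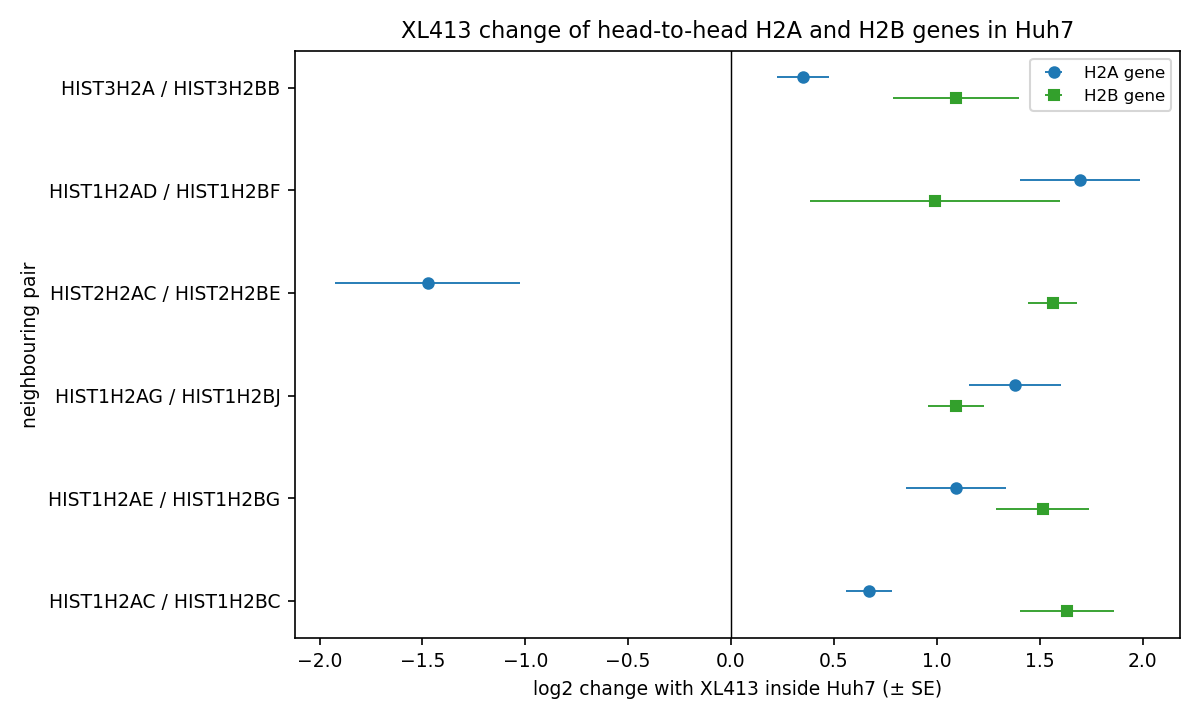
Log2 change with XL413 inside Huh7 (x axis, with standard errors, 2 libraries against 2) of the H2A gene (circle) and the H2B gene (square) in each of the 6 head-to-head pairs with both members tested. In 5 pairs both points lie right of 0; in HIST2H2AC and HIST2H2BE they lie on opposite sides.

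The remaining H3 and H4 genes had low counts. HIST1H3H stood at 5.01, 2.12, 8.84 and 5.75 CPM in Huh7 and at 1.28, 1.02, 1.37 and 1.65 CPM in Hep3B, and rose with XL413 inside Huh7 by 1.08 ± 0.19 (adjusted p = 0.000457). HIST1H3C stood at 2.83, 1.24, 1.93 and 0.958 CPM in Huh7 and at 0.426, 0.350, 0.424 and 0.245 CPM in Hep3B, and HIST1H3D at 1.72, 0.512, 2.70 and 1.62 CPM and 0.426, 0.245, 0.236 and 0.520 CPM. HIST1H3C did not rise with XL413 in Huh7 (-0.48 ± 0.26, 0.206), HIST1H3D did (1.01 ± 0.31, 0.026), and both fell with sertraline there. HIST1H4H stood at 2.26, 1.13, 5.40 and 3.34 CPM in Huh7 and at 0.638, 0.455, 0.518 and 0.459 CPM in Hep3B, with a rise of 1.38 ± 0.22 (0.000153) with XL413 in Huh7. HIST1H3B rose there by 2.24 ± 0.50 (0.00315) from 5 reads in the control to 40 under XL413.

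The other 2 H1 genes had few reads. HIST1H1E stood at 0.841, 0.659, 0.737 and 0.627 CPM in Huh7 and at 0.638, 0.736, 1.37 and 0.703 CPM in Hep3B, and HIST1H1B at 0.688, 0.403, 0.211 and 0.198 CPM and 0.142, 0.175, 0.141 and 0.153 CPM. HIST1H1E passed in no comparison. HIST1H1B was lower in Hep3B (-1.20 ± 0.45, adjusted p = 0.0439), a call that was lost in each of the 8 fits without 1 library (0.052 to 0.259), and its XL413 change inside Huh7 was -1.38 ± 0.51 (0.0608), with both XL413 libraries below both others. HIST1H2AG, an H2A gene that did not pass between the lines, stood at 2.37, 1.32, 4.88 and 4.59 CPM in Huh7 and at 2.91, 3.54, 3.06 and 2.69 CPM in Hep3B, so the Hep3B values lay inside the range that the Huh7 values spanned. The 3 untested genes held 26 reads over all libraries for HIST1H2BL, 33 for HIST1H3A and 31 for HIST1H4C.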

How the data were processed

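Poly(A)-selected, stranded RNA libraries of 2 liver cancer cell lines under 4 treatments were analysed from a deposited table of read counts per gene. Per the submitters' processing notes, the authors used HISAT2 and HTSeq on GRCh38 (hg38), with versions, strand setting and handling of multi-mapped reads not stated. From the deposited counts, genes were kept with edgeR's filterByExpr on treatment (16972 of 31710), scaled by TMM and tested with edgeR 4.0.16 (R 4.3.3) by the quasi-likelihood test with Benjamini-Hochberg adjustment over all genes tested and a threshold of 0.05. The model held line and treatment (3 residual degrees of freedom). Line is the replicate block, since libraries of the same line come from the same cells. Line differences of a drug effect, and the effects inside a line that were added after the data were seen, came from a model of line by XL413 plus line by sertraline (2 residual degrees of freedom). DESeq2 1.42.0 and limma 3.58.1 were alternatives. The fits were tested on simulated data.

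Genes named were the 3 with the highest mean level in each class, those past the threshold (for more than 12, the 6 smallest p in each direction), the 2 smallest p in each direction of each comparison, and SLBP and NPAT. The lists were histone mRNA processing and decay (24 genes), replacement histones, chaperones, S phase genes, liver markers, markers of other cells and RNAs without a tail, of which the named pair summed to 0.612 to 1.42 CPM. The members and lists were chosen with earlier results of these data known. Stem-loops were searched in GENCODE v29 transcripts and promoters in RefSeq GRCh38.p14. Depth was 20275392 to 30842770 reads a library, and genes with few reads have wide errors.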

Additional observations from a re-analysis of the deposited data

Results flagged for a closer look

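The XL413 effect differed between the lines, by the direct test with edgeR's quasi-likelihood test, in 11 histone genes, each lower in Hep3B than in Huh7. On the log2 scale the difference (Hep3B minus Huh7) was -1.47 for HIST2H2BE, -1.10 for HIST1H2BD, -0.94 for HIST1H2AC, -1.97 for HIST1H2BC, -1.56 for HIST1H2AG and -1.95 for HIST1H2BG. It was -1.12 for HIST1H2BJ, -1.19 for HIST1H2BN, -1.52 for HIST1H4H, -2.74 for HIST1H3B and -1.56 for HIST4H4. The sertraline effect differed between the lines in HIST4H4, by 1.76, the 1 of 33 genes that passed (3.03%), where 4.34% of all genes did. The spread behind these tests is the departure of the drugs from additive effects inside a line, not that of repeated cultures.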

How the results depend on the processing

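With 1 library per line and treatment, all calls rest on few degrees of freedom, and low counts limit the H3 and H4 genes. Of 68 recomputed counts of called histone genes, 49 stayed at the reported count or within 1.5 times of it. These include counts of 0 that stayed at 0, which say nothing on how stable the calls are. With no replicate block (line left out) sertraline against control gave 0 calls in place of 1. Sertraline against control gave 4 calls with no filter on low counts, 2 with DESeq2, 0 with limma and 6 with additive drug effects. XL413 against control gave 2 with additive effects. Effects inside Huh7 gave 22 calls for XL413 and 16 for sertraline, and inside Hep3B 1 and 6. Both drugs against XL413 gave 3 with no filter and 2 with DESeq2. Hep3B against Huh7 gave 16 of the fewer genes with at least 50 reads in 2 libraries. The line difference of the XL413 effect gave 5 with DESeq2. That of the sertraline effect gave 2 with RLE size factors, 0 with total counts, 2 with at least 50 reads in 2 libraries, 0 with DESeq2 and 0 with limma. Leaving out 1 library in turn gave 0 to 1 calls for sertraline, 20 to 24 for Hep3B against Huh7, 6 to 10 for the line difference of XL413, 0 to 3 for that of sertraline, and 0 in the other 4 comparisons. HIST1H4I with sertraline turned to -0.083 with additive effects and -0.45 inside Huh7. HIST1H1E in Hep3B against Huh7 turned to -0.024 without the XL413 library of Huh7 and -0.020 without that of Hep3B. HIST1H2AL in the line difference of sertraline turned to 1.44 without the Hep3B library with XL413 and 1.44 without that with both drugs. The cause of these changes was not tested.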
